A study of Mus musculus with 18 samples.

Results

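Immediate-early genes are the first genes that cells transcribe after a stimulus, and 10 of them were followed here: Fos, Fosb, Jun, Junb, Egr1, Atf3, Dusp1, Nr4a1, Ier2 and Zfp36. They were chosen by symbol as a fixed list, with earlier results of these data known. All 10 were found among the 17903 gene symbols of the deposited raw count tables, and all 10 were among the 13539 genes that passed the filter on low counts and were tested. RNA had been sequenced from dendritic cells sorted from mouse spleen as conventional type 1 cells (cDC1), conventional type 2 cells (cDC2) and plasmacytoid cells (pDC). The labels give 18 samples. In each subset 3 samples are labelled HDAC1 Mx1-Cre and 3 are labelled HDAC1 floxed. Mx1-Cre is a recombinase driven by an interferon-inducible promoter, so it is not restricted to dendritic cells. PolyI:C, which induces interferon, was given to both genotypes 2 weeks before the sort.

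Induction of these genes needs no new protein synthesis. Signals through MAP kinases act on factors already bound at their promoters, such as serum response factor with its ETS partners and CREB, and the transcripts decay again quickly. Fos, Fosb, Jun and Junb encode subunits of the AP-1 transcription factor, and Egr1, Atf3 and Nr4a1 encode other DNA-binding regulators. Dusp1 and Zfp36 encode proteins that limit the response, and Ier2 encodes a nuclear protein. In dendritic cells the same genes respond to microbial ligands, and in solid tissues they are also known to respond to enzymatic digestion and sorting. Per the labels, the spleens were digested with Liberase and DNase and filtered, red cells were lysed, and the cells were stained and sorted into Trizol. The labels describe no sample taken without these steps, so the level before digestion was not measured.

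The unit of replication was the table column. The raw tables hold 6 columns per subset with 23530860 to 37105002 counts each, and the subset of a column is that named by its table. The columns carry codes from a157 to a174, and 0 of these codes match a sample label. Genotype was therefore not assigned to any column, each subset holds columns of both genotypes, and any effect of Hdac1 loss lies inside the spread within a subset. The level of Hdac1, in CPM (counts scaled to a common library size), ran from 5.57 to 77.3 in cDC1 columns, from 6.02 to 83.3 in cDC2 columns and from 8.45 to 113 in pDC columns. Of 10 markers per subset, 8 for cDC1 (not Irf8 and Tlr3) and 10 for pDC were higher in every column of their subset than in every other column. For cDC2 this held for 5 of 10, among them Itgam and Sirpa; the exceptions were Irf4, Cd4, Clec10a, Cd209a and Clec12a. The labels do not say whether columns came from separate mice, so p-values measure only the spread between these columns. In such bulk RNA, fewer cells with a transcript and less of it per cell cannot be told apart.

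Promoter sequences show what the members share outside the expression values. RefSeq windows (build GRCm38.p6) of 250 bases before to 50 after the start site were at hand for 8 of the 10 genes, Egr1 and Ier2 not being among them, and 4 motifs were searched on both strands. The cAMP response element TGACGTCA occurred in 1.79% of 32851 promoters and in 1 of the 8, Dusp1. A CArG box, the letters bound by serum response factor, occurred in 1.63% of promoters and in 1 of the 8, Zfp36. The AP-1 site TGANTCA occurred in 7.81% of promoters and in 0 of the 8. The shorter TGACG, which is contained in the cAMP response element, occurred in 20.8% of promoters and in 6 of the 8, namely Fos, Fosb, Junb, Atf3, Dusp1 and Nr4a1. It was chosen for display after all hits had been seen, and a match describes letters only. The 250 bases before the start site are printed for 3 of these genes and for Jun. Jun had no match to any of the motifs, and its levels departed from the others. Zfp36 also lacked TGACG, but the order of its medians was that of the members other than Jun. A link between motifs and levels was not tested. Capitals mark TGACG or its reverse complement CGTCA. The Fos stretch lies at chr12:85473640-85473889 on the plus strand, that of Dusp1 at chr17:26508473-26508722 on the minus strand, that of Nr4a1 at chr15:101266596-101266845 on the plus strand and that of Jun at chr4:95052223-95052472 on the minus strand.
Fos: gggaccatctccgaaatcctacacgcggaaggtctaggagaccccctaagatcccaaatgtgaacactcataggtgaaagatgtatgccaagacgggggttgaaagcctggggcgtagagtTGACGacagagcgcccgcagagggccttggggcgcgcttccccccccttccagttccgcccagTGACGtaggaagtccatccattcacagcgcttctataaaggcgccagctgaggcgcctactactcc
Dusp1: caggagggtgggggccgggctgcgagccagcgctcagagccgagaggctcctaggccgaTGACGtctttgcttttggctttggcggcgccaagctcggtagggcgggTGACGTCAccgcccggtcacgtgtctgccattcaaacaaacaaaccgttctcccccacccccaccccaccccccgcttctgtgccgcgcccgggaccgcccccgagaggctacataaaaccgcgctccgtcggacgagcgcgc
Nr4a1: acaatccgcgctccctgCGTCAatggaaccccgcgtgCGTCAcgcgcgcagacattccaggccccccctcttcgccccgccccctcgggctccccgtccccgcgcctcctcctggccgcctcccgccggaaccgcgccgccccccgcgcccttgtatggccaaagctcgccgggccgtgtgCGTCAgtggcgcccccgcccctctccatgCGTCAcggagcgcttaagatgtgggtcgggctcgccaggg
Jun: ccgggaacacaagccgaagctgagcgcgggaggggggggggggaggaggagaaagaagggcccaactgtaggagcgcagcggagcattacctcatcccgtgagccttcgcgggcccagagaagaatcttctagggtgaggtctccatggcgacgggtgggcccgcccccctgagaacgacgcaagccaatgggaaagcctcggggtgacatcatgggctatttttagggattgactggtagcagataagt
Counted from the start site, Dusp1 held a pair of overlapping matches at -143 and -140, which together spell TGACGTCA, and another at -191. Nr4a1 held 4 matches, at -233, -213, -69 and -40, and Fos held 2, at -129 and -66. Jun held none.

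The first question was how the subsets differ in these genes. All 10 members were lower in cDC1 than in cDC2 at an adjusted p under 0.05 (edgeR's quasi-likelihood test, two-sided, Benjamini-Hochberg over 13539 genes), where 25.7% of all genes tested were called lower in cDC1. None was higher, beside 24.8% of all genes. Their median log2 fold change was -1.11, beside 0.01 for all genes. Of cDC1 against pDC, 5 members were higher (Junb, Egr1, Atf3, Dusp1 and Nr4a1), beside 34.3% of all genes, 1 was lower (Jun), beside 32.1% of all genes, and 4 were not called (Fos, Fosb, Ier2 and Zfp36). The median there was 0.56, beside 0.04 for all genes. Of cDC2 against pDC, 9 members were higher, beside 32.2% of all genes, 0 were lower, beside 32% of all genes, and Jun was not called. The median was 1.81, beside 0.01 for all genes. For 7 of the 10 genes every cDC2 column lay above every column of both other subsets, a pattern found in 8.8% of all genes. The sum of macrophage and monocyte markers was also highest in cDC2, though not every marker was. The summed level of 9 such markers ranged from 149 to 487 CPM (median 326) in cDC1, from 570 to 1124 (median 833) in cDC2 and from 260 to 431 (median 322) in pDC. For 6 of the 9 (Adgre1, C1qa, C1qb, C1qc, Mertk and Csf1r) every cDC2 column lay above all others. Adgre1 had a median of 6.71 CPM in cDC1, 211 CPM in cDC2 and 1.23 CPM in pDC. Fcgr1 was at 0 in at least 1 column of cDC1 and of pDC. Ccr2 went the other way, with medians of 199 CPM in cDC1, 41.8 CPM in cDC2 and 306 CPM in pDC, and was the largest part of the pDC sums. Vcam1 overlapped between cDC1 (39.5 to 92.3 CPM) and cDC2 (28.6 to 128 CPM). The part of such cells in the higher cDC2 levels was not tested. These 3 comparisons share columns, so their counts are not independent of each other. Counts were scaled by table totals and by TMM factors, which adjust those totals. With table totals alone, the share of all calls that were higher was 38.6% in cDC1 against pDC, instead of 51.7% with TMM factors. In cDC2 against pDC it was 37.4%, instead of 50.1%. The median of all genes moved to -0.17 and -0.20 in these comparisons.

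**Figure D1:**
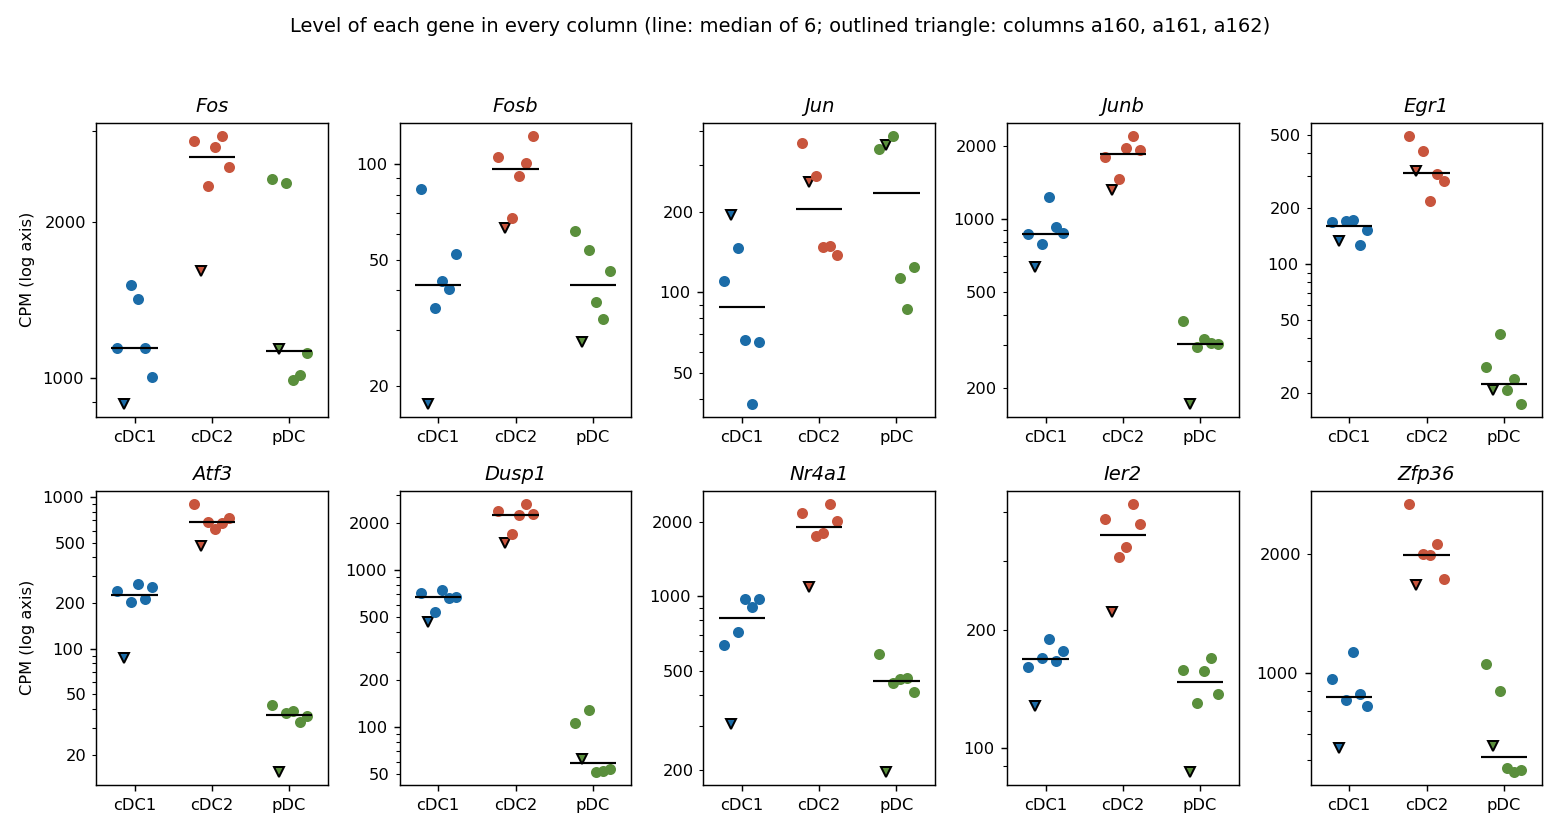
Level of the 10 genes in CPM (log axis, a separate scale per gene) in each of the 18 columns, in the order cDC1, cDC2, pDC, with the median of 6 columns as a line and columns a160, a161 and a162 as outlined triangles. For 7 genes all cDC2 points lie above all others, and for Jun the 3 subsets overlap.

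Among the members, the steepest differences in all 3 comparisons were in Dusp1, which encodes a phosphatase that inactivates p38 and JNK. Its level ran from 467 to 747 CPM (median 669.9) in cDC1 columns, from 1476 to 2637 (median 2256) in cDC2 columns and from 52.0 to 128 (median 58.5) in pDC columns. No column of any subset overlapped with another subset. The gene was 3.33-fold lower in cDC1 than in cDC2 (log2 fold change -1.74, SE 0.22, adjusted p = 1.45e-06), 8.36-fold higher in cDC1 than in pDC (3.06, SE 0.23, adjusted p = 3.12e-10) and 27.8-fold higher in cDC2 than in pDC (4.80, SE 0.25, adjusted p = 8.51e-13). Dusp1 lies at chr17:26505590-26562128 on the minus strand (GRCm38, GENCODE M21), and 11 exonic bases are shared with Ergic1 on the opposite strand. The sources used here do not say whether the authors' counting used strand. Zfp36 encodes tristetraprolin, which binds AU-rich elements and promotes decay of cytokine and immediate-early mRNAs. It had 644 to 1129 CPM (median 868) in cDC1 columns, 1671 to 2679 (median 1992) in cDC2 columns and 563 to 1053 (median 612) in pDC columns. The cDC2 columns stood above all others, while cDC1 and pDC overlapped. The log2 fold change of Zfp36 was -1.20 for cDC1 over cDC2 (SE 0.17, adjusted p = 4.87e-06) and 1.501 for cDC2 over pDC (SE 0.17, adjusted p = 1.23e-07). For cDC1 over pDC it was 0.30, with an interval of 2 SE from -0.03 to 0.63 (adjusted p = 0.115), and 0.44 (adjusted p = 0.0162) without column a159. Zfp36 (chr7:28376784-28380253, minus strand) shares 125 exonic bases with Gm44710 on the opposite strand.

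Atf3 encodes a stress-induced bZIP factor that in macrophages restrains inflammatory genes. Atf3 had 86.4 to 265 CPM (median 226) in cDC1 columns, 475 to 900 (median 680) in cDC2 columns and 15.5 to 42.7 (median 36.6) in pDC columns. The 3 subsets did not overlap. Atf3 was 3.23-fold lower in cDC1 than in cDC2 (log2 fold change -1.69, SE 0.24, adjusted p = 5.92e-06), 6.23-fold higher in cDC1 than in pDC (2.64, SE 0.25, adjusted p = 9.37e-09) and 20.1-fold higher in cDC2 than in pDC (4.33, SE 0.27, adjusted p = 1.21e-11). The gene lies at chr1:191170296-191218039 on the minus strand. Egr1, a zinc-finger factor induced through the ERK pathway, followed the same order. Its level was 126 to 173.2 CPM (median 161.2) in cDC1 columns, 219 to 493 (median 313) in cDC2 columns and 17.6 to 41.8 (median 22.5) in pDC columns. Again no column overlapped with another subset. The log2 fold changes of Egr1 were -1.13 for cDC1 over cDC2 (SE 0.19, adjusted p = 5.62e-05), 2.60 for cDC1 over pDC (SE 0.20, adjusted p = 5.49e-10) and 3.73 for cDC2 over pDC (SE 0.21, adjusted p = 3.61e-12). Nr4a1 encodes the orphan nuclear receptor NUR77, which antigen-receptor signals induce in lymphocytes. It had 306 to 977 CPM (median 815) in cDC1 columns, 1086 to 2359 (median 1904) in cDC2 columns and 196 to 584 (median 455) in pDC columns. The cDC2 columns were above all others, and the ranges of cDC1 and pDC overlapped through the lowest cDC1 column. Nr4a1 was lower in cDC1 than in cDC2 by a log2 fold change of -1.30 (SE 0.26, adjusted p = 0.000275), and higher in cDC1 than in pDC by 0.82 (SE 0.26, adjusted p = 0.00834) and in cDC2 than in pDC by 2.12 (SE 0.26, adjusted p = 5.72e-07). Its position is chr15:101254269-101274795 on the plus strand.

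Among the AP-1 subunits, Junb was the one that set all 3 subsets apart without overlap. JUNB pairs with FOS and BATF proteins and activates transcription less strongly than JUN at many sites. Junb had 630 to 1232 CPM (median 868) in cDC1 columns, 1316 to 2195 (median 1857) in cDC2 columns and 172.5 to 379 (median 305) in pDC columns. Its log2 fold change was -1.01 for cDC1 over cDC2 (SE 0.17, adjusted p = 5.15e-05), 1.58 for cDC1 over pDC (SE 0.17, adjusted p = 8.86e-08) and 2.58 for cDC2 over pDC (SE 0.18, adjusted p = 7.72e-11). Junb (chr8:84974484-84978718, minus strand) shares part of an exon with Prdx2 on the opposite strand. Fos, whose protein must pair with a JUN protein to bind DNA, had 892 to 1508 CPM (median 1142) in cDC1 columns, 1605 to 2931 (median 2670.2) in cDC2 columns and 992 to 2425 (median 1127) in pDC columns. Every cDC2 column lay above every cDC1 column, whereas the pDC range reached into both other ranges. The pDC spread had a gap, with columns a159 and a164 at 2425 and 2377 CPM and the other 4 at or below 1137 CPM. The log2 fold change of Fos was -1.09 for cDC1 over cDC2 (SE 0.23, adjusted p = 0.000514) and 0.74 for cDC2 over pDC (SE 0.23, adjusted p = 0.00803). For cDC1 over pDC it was -0.35, with an interval of 2 SE from -0.81 to 0.10 (adjusted p = 0.181), and -0.56 (adjusted p = 0.0279) without TMM factors. Fosb, a FOS relative with a longer-lived splice form, had 17.6 to 83.4 CPM (median 41.5) in cDC1 columns, 62.7 to 122 (median 96.0) in cDC2 columns and 27.5 to 61.7 (median 41.5) in pDC columns. The cDC2 and pDC ranges of Fosb did not overlap, and the highest cDC1 column lay inside the cDC2 range. Its log2 fold change was -1.02 for cDC1 over cDC2 (SE 0.27, adjusted p = 0.00369) and 1.09 for cDC2 over pDC (SE 0.27, adjusted p = 0.00153). For cDC1 over pDC it was 0.07, with an interval from -0.47 to 0.61 (adjusted p = 0.831), and -0.12 without TMM factors. Fos lies at chr12:85473890-85477273 on the plus strand and Fosb at chr7:19302696-19310051 on the minus strand.

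Jun did not follow the order cDC2, cDC1, pDC that the medians of the other 9 genes had, although cDC1 and pDC were not told apart by the test for Fos, Fosb, Ier2 and Zfp36. JUN, the protein it encodes, is the AP-1 subunit that JNK phosphorylates and that activates its own gene. Jun had 38.4 to 195 CPM (median 88.4) in cDC1 columns, 138 to 363 (median 204) in cDC2 columns and 86.9 to 384 (median 234) in pDC columns. All 3 ranges overlapped. The log2 fold change of Jun was -1.09 for cDC1 over cDC2 (SE 0.41, adjusted p = 0.0331), -1.18 for cDC1 over pDC (SE 0.41, adjusted p = 0.0171) and -0.08 for cDC2 over pDC, with an interval of 2 SE from -0.90 to 0.73 (adjusted p = 0.871). The call between cDC1 and cDC2 was lost when any 1 of 6 columns was left out, those being a166, a169 and a172 of cDC1 and a158, a161 and a165 of cDC2, with adjusted p between 0.0561 and 0.0841. Jun (chr4:95049034-95052222, minus strand) shares 232 of its 3189 exonic bases with the antisense gene Junos. Reads of the 2 genes within those 232 bases cannot be told apart if the counting ignored strand.

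Ier2, a short intronless gene at chr8:84661331-84662852 on the minus strand, had 128 to 189.6 CPM (median 168.5) in cDC1 columns, 223 to 421 (median 350.1) in cDC2 columns and 87.2 to 169.6 (median 147) in pDC columns. The cDC2 columns lay above all others, and cDC1 overlapped with pDC. Its log2 fold change was -1.04 for cDC1 over cDC2 (SE 0.15, adjusted p = 9.62e-06) and 1.28 for cDC2 over pDC (SE 0.15, adjusted p = 3.25e-07). For cDC1 over pDC it was 0.24, with an interval of 2 SE from -0.06 to 0.54 (adjusted p = 0.167). The fewest counts behind any member's value in any column were 410, for Atf3 in a pDC column.

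**Figure D2:**
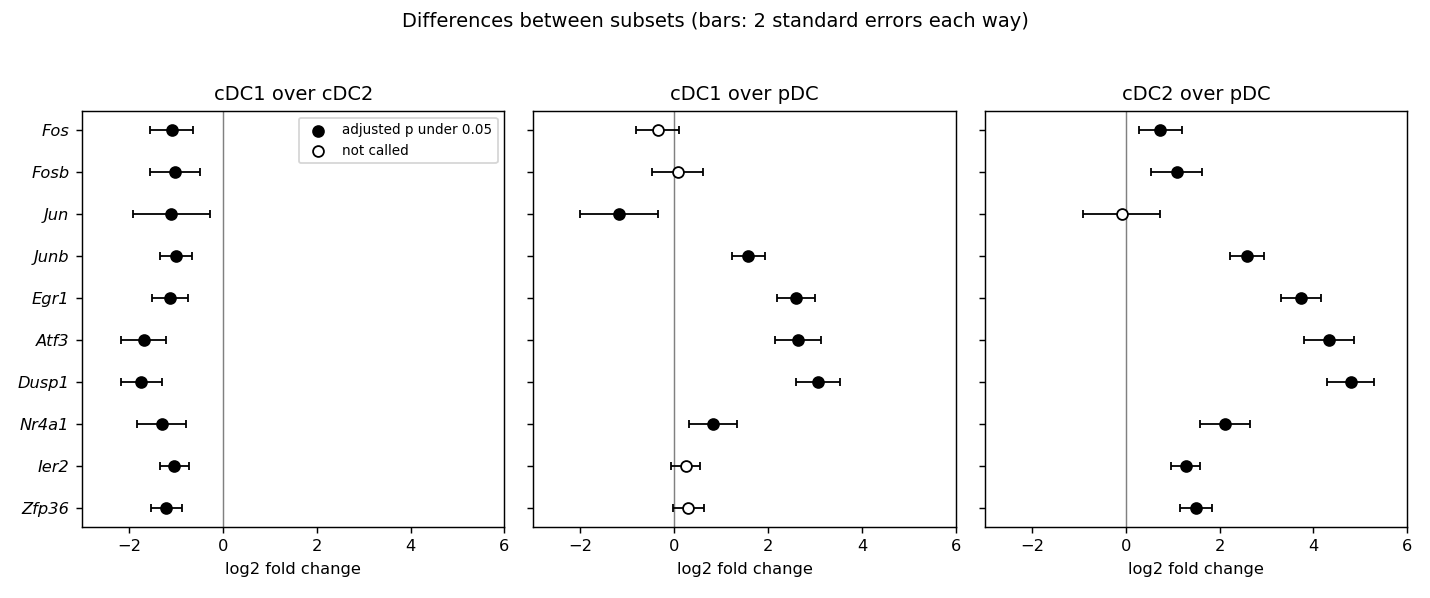
Log2 fold change of each gene (x axis) for cDC1 over cDC2, cDC1 over pDC and cDC2 over pDC, with bars of 2 standard errors each way, filled where the adjusted p was under 0.05. All 10 genes lie left of 0 in the first panel, 9 of 10 are filled and right of 0 in the third, and Dusp1 reaches 4.80 there.

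The second question was how far these genes varied between the 6 columns of a subset. The SD of log2(CPM + 1) over the columns had a median over the members of 0.30 in cDC1, 0.33 in cDC2 and 0.47 in pDC, beside 0.22, 0.18 and 0.15 over all genes tested. The SD was above the median of all genes for 8 members in cDC1 and for all 10 in cDC2 and in pDC. The exceptions in cDC1 were Egr1, with an SD of 0.20, and Ier2, with 0.19. Jun had the widest spread of the members in each subset, at 0.85 in cDC1, 0.58 in cDC2 and 0.97 in pDC. In each subset its SD exceeded that of more than 97.5% of genes. The highest column was 1.37 to 5.08 times the lowest among members in cDC1, 1.60 to 2.63 times in cDC2 and 1.87 to 4.42 times in pDC. These spreads hold any genotype effect as well as differences between mice and preparations, which cannot be told apart here.

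Many of the genes were lowest in the same column of their table. Column a160 held the lowest value of 8 of the 10 members in cDC1, a161 of 8 in cDC2 and a162 of 5 in pDC. Of all genes tested, 13.5% were lowest in a160, 18.9% in a161 and 21.0% in a162. These 3 columns were picked, after the values had been seen, as those with the lowest mean of the 10 genes in their subset. Many low values of the members there follow from that choice, so the shares of all genes are not a like baseline. Fosb, Junb, Atf3, Nr4a1 and Ier2 had their lowest value in these columns in all 3 tables, as had 221 of all 13539 genes tested (1.63%). The mean of the 10 genes lay 0.47 below the subset mean on the log2 scale in a160, 0.38 below in a161 and 0.40 below in a162, equal to 1.39-fold, 1.30-fold and 1.32-fold. Nr4a1 had 306 CPM in a160, against 638 or more in the other cDC1 columns, 1086 CPM in a161, against 1758 or more in the other cDC2 columns, and 196 CPM in a162, against 411 or more in the other pDC columns. Jun went the other way, with its highest cDC1 value, 195 CPM, in a160. At the high end, a159 held the highest value of 6 members in pDC and a166 of 6 in cDC1.

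**Figure D3:**
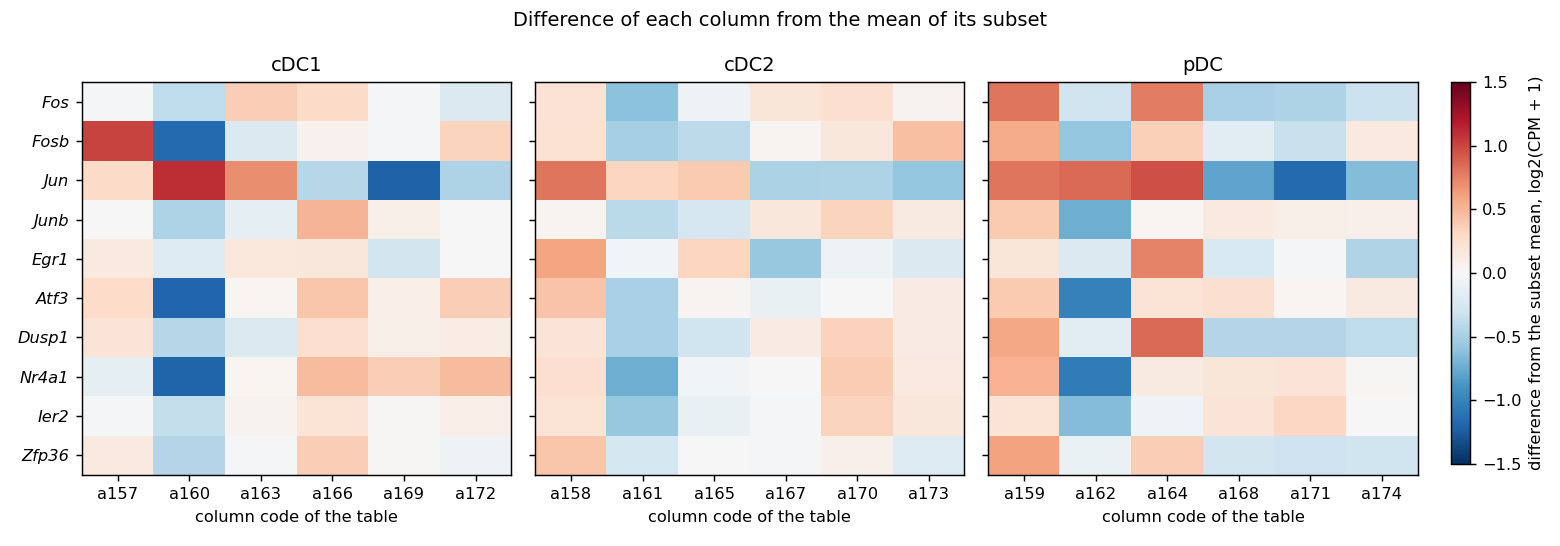
Difference of each gene in each column from the mean of its subset, on the log2(CPM + 1) scale (red above, blue below; x axis: column codes). Columns a160, a161 and a162, picked for the lowest mean of the 10 genes, are below the subset mean for 9 of 10 genes each.

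Whether erythroid RNA and the 10 genes move together over all columns was not tested. Erythroid RNA was highest in the 3 columns picked for the lowest mean of the members. The summed level of 6 erythroid markers (globins, Alas2 and Slc4a1) was the highest of its subset in each of them, at 9306 CPM in a160, 6007 in a161 and 6017 in a162, against at most 6290.1, 4082 and 3099 in the other columns of the same tables. In all columns the sum ranged from 2957 to 9306 CPM in cDC1, from 3364 to 6007 in cDC2 and from 2198 to 6017 in pDC, with medians of 5970.01 in cDC1, 3788 in cDC2 and 2632 in pDC, and none of the 6 markers was at 0 in any column. Its part in the low values was not tested. As a share of the scaled library size (table total times TMM factor), the erythroid sum was 0.931% in a160, 0.601% in a161 and 0.602% in a162. With these 3 columns left out, a choice made after seeing the data, 10, 6 and 9 members were called in cDC1 against cDC2, cDC1 against pDC and cDC2 against pDC, as with them. The median SD of the members was then 0.22 in cDC1, 0.22 in cDC2 and 0.40 in pDC. These columns were picked for the lowest mean of the members, so a lower SD without them follows from that choice. Markers of B and T cells were likewise highest in a160 and a161, at 184 and 108 CPM for B cells and 28.9 and 23.5 CPM for T cells, but not in a162, at 122 and 13.0 CPM. Neutrophil markers summed to 697 CPM in a160, 160.96 CPM in a161 and 11.6 CPM in a162, of a range from 11.6 to 1269.6 CPM over the 18 columns, and were the highest of the subset in a161 alone. In a162, macrophage and monocyte markers (431 CPM) and NK cell markers (12.1 CPM) summed to the highest of the pDC columns. Neither sum was highest in a160 or a161 for its own subset. Ccr2 alone gave 418 of the 431 CPM in a162, and no other marker of that list was above 3.39 CPM there. The median of Ccr2 was 306 CPM over the pDC columns. Among cDC1 columns the summed cDC2 markers were highest in a160, at 991 CPM. The summed cDC1 markers were highest in a161 among cDC2 columns, at 366 CPM, and in a162 among pDC columns, at 4883 CPM. The largest parts were Tmem176b (528 CPM) and Clec12a (344 CPM) in a160. They were Wdfy4 (147 CPM) and Batf3 (103 CPM) in a161, and Irf8 (4292 CPM) in a162. Irf8 had a higher median in pDC (4030 CPM) than in cDC1 (1750 CPM). Clec12a had a higher median in cDC1 (351 CPM) than in cDC2 (93.8 CPM).

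**Figure D4:**
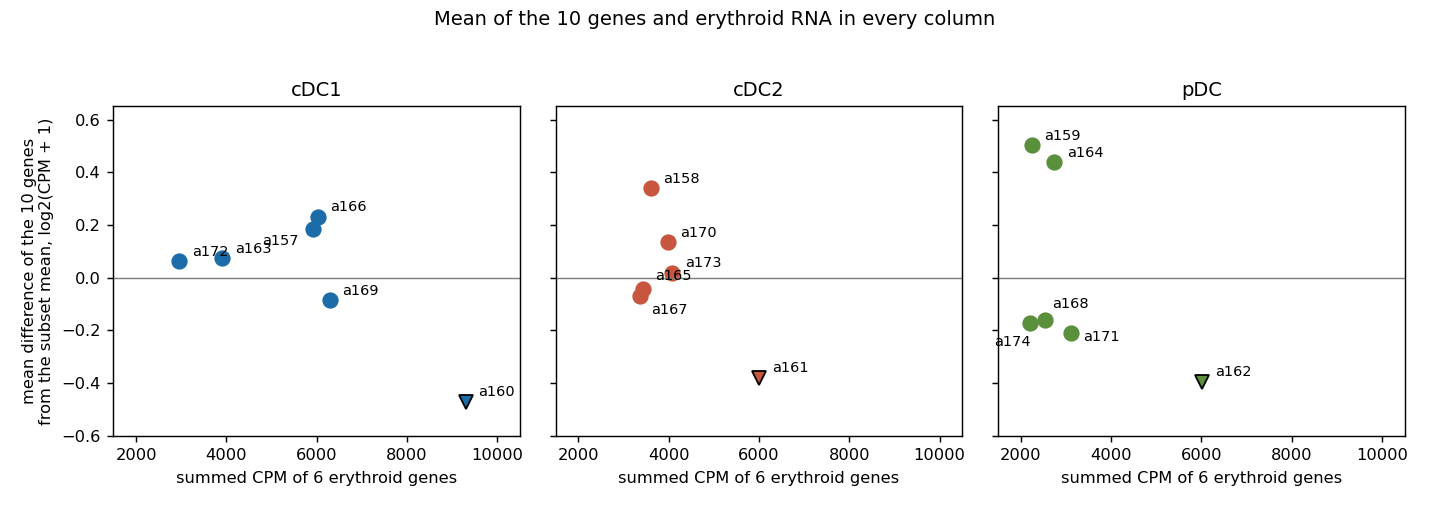
Mean difference of the 10 genes from the subset mean (y axis, log2(CPM + 1)) against the summed CPM of 6 erythroid genes (x axis) in each column, labelled with its code. The outlined triangle (a160, a161 or a162) marks the column picked in each panel for the lowest value on the y axis. It is also farthest right.

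How closely the members moved together within subsets was described by Pearson's r over the 18 columns after the subset mean had been removed. The columns share libraries and depth across genes, so no p is given. Each member was set against the mean of the other 9. Zfp36 had the highest value, 0.87, then Fos with 0.83 and Dusp1 with 0.81. Ier2 had 0.54, and Jun stood apart at -0.10. Within single subsets of 6 columns, Ier2 had 0.87 in cDC1, 0.85 in cDC2 and 0.27 in pDC, and Jun had -0.63 in cDC1, -0.11 in cDC2 and 0.31 in pDC. Outside the 10 genes, the 10 whose profile was most like the mean of the members, of 6555 with at least 10 CPM on average in every subset, ran from r = 0.91 to 0.84. In falling order they were Tamalin, Tent5c, Cd83, Herpud1, Stk17b, Rnf19b, Rasgef1b, A930011G23Rik, Ppp1r15a and Sik1. Rasgef1b and A930011G23Rik had equal counts in all 18 columns, so their values are not separate measurements. Cd83, a surface protein of mature dendritic cells, averaged 2951 CPM in cDC1, 3370.2 CPM in cDC2 and 36.5 CPM in pDC. Ppp1r15a, which encodes a stress-induced subunit of the phosphatase acting on eIF2α, averaged 177 CPM in cDC1, 437 CPM in cDC2 and 77.7 CPM in pDC. Sik1, a salt-inducible kinase gene, was the 1 gene of the 10 that also stood on the list of further immediate-early genes.

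Of that list, 48 of 51 symbols were tested, Cyr61 being an older symbol of Ccn1. In cDC1 against cDC2, 5 were higher, beside 24.8% of all genes, 30 were lower, beside 25.7% of all genes, and 13 were not called. The median log2 fold change was -0.73, beside 0.01 for all genes. The 3 lowest in cDC1 were Ptgs2, which encodes the prostaglandin synthase COX-2 (-4.65), the polo-like kinase gene Plk2 (-2.84) and the transcription factor gene Cebpb (-2.70). The 3 highest were Arc, best known from neurons (5.15), the phosphatase gene Dusp4 (1.64) and the pseudokinase gene Trib1 (1.59). Levels were low for Arc, with means of 20.1 CPM in cDC1 and 0.56 CPM in cDC2, and for Dusp4, with 2.41 and 0.78 CPM. Trib1 averaged 95.4 CPM in cDC1 and 31.6 CPM in cDC2. Ptgs2 averaged 23.1 ± 6.3 CPM in cDC1, 578 ± 192 CPM in cDC2 and 1.26 ± 0.41 CPM in pDC (SD, n = 6 columns each). In cDC1 against pDC, 24 were higher, beside 34.3% of all genes, 14 were lower, beside 32.1% of all genes, and 10 were not called. The median was 0.48, beside 0.04 for all genes. Arc (5.61), the zinc-finger gene Egr3 (5.43) and the kinase gene Sgk1 (5.08) led the higher ones, and Cebpd (-2.64), the GTPase gene Rhob (-1.76) and the cytokine-signalling inhibitor gene Socs3 (-1.67) the lower ones. In cDC2 against pDC, 29 were higher, beside 32.2% of all genes, 8 were lower, beside 32% of all genes, and 11 were not called. The median was 0.84, beside 0.01 for all genes. Ptgs2 (8.82), Gadd45g (5.22) and Plk3 (5.13) had the largest rises. Trib1 (-2.10), Klf2, a factor of quiescent lymphocytes (-1.32), and Irf1 (-1.16) were lower in cDC2 than in pDC.

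Heat shock genes answer to misfolded protein through HSF1. The counts of this list and of the next ones stand beside the shares of all genes called, which were 24.8% higher and 25.7% lower in cDC1 than in cDC2, 34.3% higher and 32.1% lower in cDC1 than in pDC, and 32.2% higher and 32% lower in cDC2 than in pDC. Of 17 heat shock genes tested, 6 were higher, 1 was lower and 10 were not called in cDC1 against cDC2 (median log2 fold change 0.12). In cDC1 against pDC, 7 were higher, 1 was lower and 9 were not called (median 0.38), and in cDC2 against pDC, 7 were higher, 3 were lower and 7 were not called (median 0.27). Dnajb4, a co-chaperone gene, was the 1 lower in cDC1 than in cDC2, by a log2 fold change of -1.38 (SE 0.12, adjusted p = 8.90e-09). Among 28 tested kinases and factors that act upstream of the members, 6 were higher, 12 were lower and 10 were not called in cDC1 against cDC2 (median -0.18). In cDC1 against pDC, 12 were higher, 9 were lower and 7 were not called (median 0.08), and in cDC2 against pDC, 13 were higher, 6 were lower and 9 were not called (median 0.20). Elk3, an ETS partner of serum response factor, was lowest in cDC1 against cDC2 (-2.10, SE 0.15, adjusted p = 4.63e-10). Mapk14, which encodes p38α, a substrate of DUSP1, was 1.09 higher on the log2 scale in cDC1 than in pDC (SE 0.09, adjusted p = 5.61e-10) and 2.03 higher in cDC2 than in pDC (SE 0.09, adjusted p = 3.78e-14). Rps6ka1, an ERK-activated kinase gene, was lower in cDC1 than in pDC by a log2 fold change of -2.42 (SE 0.10, adjusted p = 1.57e-14). Of 16 tested AP-1 partners and repressors, 5 were higher, 6 were lower and 5 were not called in cDC1 against cDC2 (median 0.07). In cDC1 against pDC, 8 were higher, 5 were lower and 3 were not called (median 0.49), and in cDC2 against pDC, 7 were higher, 4 were lower and 5 were not called (median 0.28). Several of these shares lie near those of all genes. Batf3, a partner of JUN proteins needed for cDC1 development, averaged 139 ± 15.5 CPM in cDC1, 95.6 ± 6.2 CPM in cDC2 and 0.32 ± 0.15 CPM in pDC (SD, n = 6 columns each). Fosl2, a FOS relative, was lower in cDC1 than in cDC2 by a log2 fold change of -1.89 (SE 0.28, adjusted p = 1.01e-05).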

How the data were processed

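The authors deposited a raw table of counts per gene symbol and a table of normalized counts for each of the 3 subsets. Per the submitters' processing notes, kallisto, DESeq2 and the mouse build GRCm38 were used; their roles and versions are not stated. In the deposited normalized tables the values, handled as a signal, equal the raw counts divided by 1 factor per column. All 36 value columns were mapped to the subset named by their table. While the tables were inspected, the counts of Hdac1 per column were also seen, and they were not used to assign a column.

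Raw counts of the 15219 symbols listed in all 3 tables were joined. Genes were kept by edgeR's filterByExpr, with full table totals as library sizes and TMM factors. The quasi-likelihood test (edgeR 4.0.16, R 4.3.3) was fitted to all 18 columns with subset as the only term, and a gene was called at an adjusted p under 0.05. SE is the size of the log2 fold change divided by the square root of F. CPM used the same factors. The procedure was tested on simulated counts. No pair of columns within a subset agreed within sampling noise (lowest chi-square per degree of freedom 9.57).

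Alternatives were RLE factors, no factors, no low-count filter, symbols of any table, only the compared subsets, DESeq2 1.42.0, a further threshold of 2-fold, another pseudocount, the authors' normalized counts, and leaving out each column. The rule for named genes was all 10 members, per list the 3 called genes with the largest change each way, and the 10 most similar profiles; for the 3 lists after the first, only some of these are printed. One marker gene of the erythroid list is not reported here and was left out of the sums. The members and lists were chosen with earlier results of these data known.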

Additional observations from a re-analysis of the deposited data

Results flagged for a closer look

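Within-subset values of the 10 genes were examined in 30 groups of 6 columns, where chance sets a column apart in about 1 in 20 groups. A lone low column stood apart in 2 groups, both of Atf3. In cDC1, column a160 had 86.4 CPM, and the nearest other column had 203 CPM, a gap of 0.655 of the whole range. In pDC, column a162 had 15.5 CPM, and the nearest other column had 33.0 CPM, a gap of 0.644 of the range. Both are among the 3 columns picked for the lowest mean of the members. That mean includes Atf3 itself, so its low values there follow in part from the choice. Without these 3 columns the log2 fold change of Atf3 was -1.61 for cDC1 over cDC2, 2.65 for cDC1 over pDC and 4.27 for cDC2 over pDC.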

How the results depend on the processing

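Counts of called genes stayed within 1.5 times of the reported ones under every alternative run, at 6381 to 7053 for cDC1 over cDC2, 8644 to 9278 for cDC1 over pDC and 8302 to 8971 for cDC2 over pDC. Of the members, 9 to 10, 6 to 7 and 9 were called with the threshold kept, and 10, 5 and 8 when a change of at least 2-fold was also asked for. Directions changed for 2 genes, neither of them called. For Fosb in cDC1 over pDC the log2 fold change was -0.12 without factors, and -0.20 to 0.24 with each column left out. For Jun in cDC2 over pDC it was -0.33 to 0.11 with each column left out and 0.025 without a160, a161 and a162. Fos in cDC1 over pDC was called without factors (-0.56, adjusted p = 0.0279, range over alternatives 0.0279 to 0.511), and Zfp36 in cDC1 over pDC without column a159 (0.44, adjusted p = 0.0162, range 0.0162 to 0.619). The causes were not tested. The median SD of the members stayed between 0.22 and 0.34 in cDC1, 0.22 and 0.36 in cDC2, and 0.40 and 0.52 in pDC. Every value of a member rests on at least 410 counts, and the number of columns, 6 per subset, limits the precision. No paired analysis was possible because the column codes carry no replicate number of the labels.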

Other observations

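Jun had separated levels within pDC and within cDC2. In pDC, Jun had 344, 356 and 384 CPM in a159, a162 and a164, and 113, 86.9 and 125 CPM in a168, a171 and a174, a step of 2.76-fold. In cDC2 it had 363, 259 and 272 CPM in a158, a161 and a165, and 148, 149 and 138 CPM in a167, a170 and a173, a step of 1.74-fold. In cDC1 the 6 columns a157, a160, a163, a166, a169 and a172 had 110.2, 195, 147, 66.5, 38.4 and 65.3 CPM. The largest step there, 1.70-fold, set only a169 apart. Columns a157, a160 and a163, at 110.2 CPM or more, also all lay above a166, a169 and a172, at 66.5 CPM or less. The summed macrophage and monocyte markers had 656, 690.3 and 569.98 CPM in a158, a161 and a165 of cDC2, and 1124, 983 and 976 CPM in a167, a170 and a173. In the cDC1 columns, in the order above, they had 163.1, 217, 149, 487, 435 and 461 CPM, and in the pDC columns a159, a162, a164, a168, a171 and a174 they had 386, 431, 308, 260, 335 and 303 CPM. Of these sums, Ccr2 alone ran from 39.7 to 342 CPM over the cDC1 columns and from 251 to 418 CPM over the pDC columns. Vcam1 had a median of 65.1 CPM in cDC1 and 3.31 CPM in pDC. Adgre1 had medians of 6.71 and 1.23 CPM there, and C1qa of 6.85 and 1.54 CPM. The part of the summed markers in the Jun values was not tested. The codes give no genotype, so these values stand without a comparison.

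A pair of pDC columns, a159 and a164, also both stood above the other 4 for Fosb, at 61.7 and 53.6 CPM against at most 46.1 CPM, for Egr1, at 27.9 and 41.8 CPM against at most 23.96 CPM, for Dusp1, at 106 and 128 CPM against at most 62.7 CPM, and for Zfp36, at 1053 and 899 CPM against at most 651 CPM, as they did for Fos. For Jun, Junb, Atf3, Nr4a1 and Ier2 they did not both stand above the rest.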
